A study of Saccharomyces cerevisiae with 16 samples.

Results

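The change between 15 and 30 min of a second exposure to galactose was examined in hda1Δ cells of the budding yeast Saccharomyces cerevisiae, which lack the catalytic subunit of the histone deacetylase complex Hda1C. It was chosen by the labels alone, as the hda1Δ library taken at 30 min over the hda1Δ library taken at 15 min, and it used 2 of the 16 libraries of the series. The series followed the wild type strain YSB787 and the deletion strain YTK113, whose genotype label reads hda1-/-, through the same 8 stages. Cells growing on raffinose in synthetic complete medium were moved to galactose (15, 30 and 120 min), then to glucose (30 and 120 min), and then to galactose again (15 and 30 min). The last 2 stages are the second exposure. The main groups set beside it are the wild type cells at those stages and the hda1Δ cells at 15 and 30 min of the first exposure. Levels in the other libraries of both genotypes are given where a gene or list is followed over the stages. All cells were one strain per genotype, and each genotype and stage was 1 RNA-seq library. There was therefore no replicate check, no test was possible, and every difference below compares libraries.

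Galactose is used by yeast only after the GAL genes are switched on. The activator Gal4 binds their promoters, the inhibitor Gal80 holds Gal4 inactive, and Gal3 relieves Gal80 when galactose is present, while glucose represses the whole system. Genes for the use of acetate, lactate, ethanol and fatty acids are also repressed by glucose, and the genes that build ribosomes follow growth and fall when a rich sugar is withdrawn. Hda1C removes acetyl groups from histones and was studied here for its effect on how quickly genes are induced when the carbon source changes.

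Levels are given as FPKM, which scale the fragments of a gene by its length and by the depth of the library. Changes are ratios of FPKM + 1, and an open reading frame (ORF) was called higher or lower when the ratio reached 2-fold (at least 2, or at most 0.5). Of 6685 nuclear ORFs, 5881 averaged at least 1 FPKM over the 16 libraries and were examined, while 804 did not and were left out. Intervals in parentheses after ratios are 95% exact binomial counting intervals. Those after differences between genotypes are 95% normal approximations from the fragment counts, which leave out the added 1 FPKM. Both kinds cover counting error only and not the spread between cultures. An ORF is called clean when it overlaps no other annotated gene, holds no more than 10% of sequence repeated elsewhere in the genome, and has neither an isolated value nor a value near 0 that its other libraries contradict. By this definition 4788 of the 5881 ORFs (81.4%) were clean.

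The hda1Δ libraries held 2.04 Gb of aligned bases at 30 min and 2.35 Gb at 15 min, within the range of 1.89 to 2.80 Gb over the series. The deleted gene HDA1 had 0.0466 and 0.162 FPKM in hda1Δ cells at 30 and 15 min, against 27.0 and 31.5 FPKM in wild type cells, which fits the labels. HDA2 and HDA3, the other subunits of Hda1C, had 20.0 and 15.6 FPKM at 30 min and 22.6 and 13.7 FPKM at 15 min in hda1Δ cells, so neither passed 2-fold. The sugar labels were only partly mirrored in the marker genes: in hda1Δ cells GAL1 was at 759 FPKM after 30 min in glucose, above its 291 FPKM after 120 min of the first galactose exposure, and it was down to 65.8 FPKM after 120 min in glucose. Wild type cells had 225, 45.2 and 46.6 FPKM at these stages and so were likewise highest after 30 min in glucose. FPKM are shares of a library, so a fall can mean less of a transcript per cell, fewer cells with it, or a larger share of other transcripts, and these cannot be told apart.

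Between 15 and 30 min, 111 ORFs were higher (1.89% of those examined) and 342 were lower (5.82%) in hda1Δ cells. The median change of all ORFs was 0.01 on the log2 scale, with quartiles of -0.21 and 0.21, so most transcripts moved little and the calls leaned towards falls. Among clean ORFs, 55 were higher and 259 lower. Genes that make ribosomes formed much of the falling side: ribosomal proteins, the small subunit processome and large subunit assembly factors together held 172 of the 342 lower ORFs (50.3%), against 4.71% of the ORFs examined. Genes for carbon sources other than sugars stood out on the rising side, where lists for gluconeogenesis, for lactate, acetate and glycerol, and for fatty acids held 15 of the 111 higher ORFs (13.5%) and 13 of the 55 clean ones (23.6%), against 0.867% of the ORFs examined. At the edge of the rule, PXA1 (67.1 against 32.4 FPKM, 2.04-fold) and YJL160C (6.38 against 2.68 FPKM, 2.01-fold) were the last ORFs called higher, and ZTA1 at 1.98-fold was the first that was not.

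**Figure D1:**
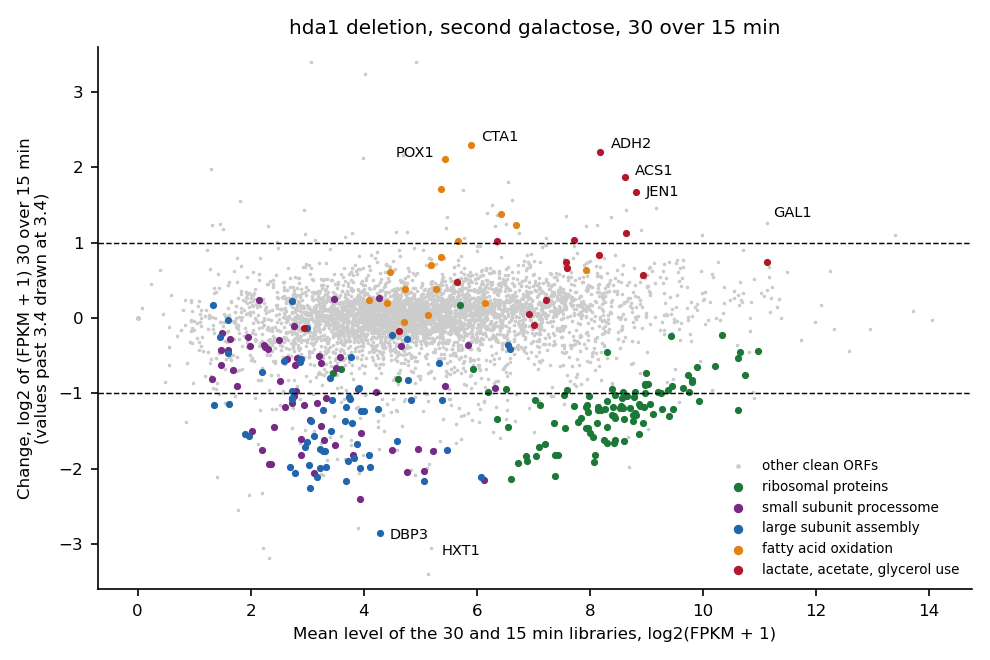
Change of each clean ORF in hda1Δ cells, as log2 of FPKM + 1 at 30 min over 15 min, against its mean level in the 2 libraries; the dashed lines mark 2-fold and each point is 1 ORF. Many ribosomal protein, processome and large subunit assembly genes lie below the lower line (73 of 105, 27 of 60 and 45 of 65 clean members), at high and at low levels, while CTA1, POX1, ADH2, ACS1 and JEN1 lie above the upper line and GAL1 just above it.

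The promoters of ribosome assembly genes share a pair of short motifs known as PAC (GATGAG) and RRPE (AAAAATTTT), read here on either strand, and of the 12 clean ORFs with the largest falls 5 carried both within a stretch of at most 30 bases. These 5 stretches are shown as examples of the pair in genes of ribosome making that fell strongly. Each runs 5′ to 3′ on the gene's own strand of the R64 genome, with the matches to PAC (GATGAG or CTCATC) and RRPE (AAAAATTTT or AAAATTTTT, which overlap where a run holds both) in capitals.
DBP3, chrVII:361991-362020, minus strand: agatgAAAAATTTTTcacCTCATCgcataa
RPF1, chrVIII:281378-281407, plus strand: aaaagtAAAATTTTTagcGATGAGatgtaa
SNU13, chrV:101745-101773, plus strand: aatgaGATGAGttagAAAATTTTTcactt
RRS1, chrXV:868200-868228, plus strand: catAAAAATTTTTccaagtGATGAGatga
NOP7, chrVII:695270-695299, plus strand: ttaaagAAAATTTTTtgcGATGAGATGAGa
All 5 stretches lie upstream of the annotated start, between 88 bases (RPF1) and 198 bases (SNU13) before it. NOP14 and NOC2 carried both motifs farther apart, and the other 5 of the 12 (HXT1, AAH1, NUG1, RPL31B and CTR2) did not have both in the 250 bases before the start.

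DBP3, an RNA helicase of large subunit assembly, had 3.73 FPKM at 30 min against 33.1 FPKM at 15 min in hda1Δ cells, a ratio of 0.139 (0.111 to 0.172). In wild type cells it had 12.6 against 61.4 FPKM. The hda1Δ level was thus the lower of the genotypes at both times, and DBP3 was already far below the 178 FPKM of the preceding glucose stage at 15 min. RPF1, needed for processing of the large subunit RNA, had 1.86 against 12.6 FPKM, and RRS1, which brings the 5S RNA particle into the large subunit, had 2.38 against 13.6 FPKM. NOP7, a large subunit assembly factor, had 24.5 against 109 FPKM in hda1Δ cells (0.232, 0.210 to 0.256) and 60.2 against 162 FPKM in wild type cells. Each of these genes was lower at 30 min than at 15 min in both genotypes.

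Factors of other steps of ribosome making fell alongside. NOP14, a processome subunit needed for the small subunit RNA, had 3.88 FPKM at 30 min against 24.9 FPKM at 15 min, and SNU13, a protein of the box C/D small nucleolar particles and of the U4 splicing particle, had 24.7 against 113 FPKM. NUG1, a GTPase for large subunit export, had 11.2 against 54.0 FPKM, and NOC2, which also acts in the passage of large subunit precursors out of the nucleus, had 3.72 against 20.1 FPKM. All 4 genes were also lower at 30 min in wild type cells, where the ratios were 0.308 for NOP14, 0.203 for SNU13, 0.298 for NUG1 and 0.238 for NOC2. NOP56 and NOP58, the core proteins of the box C/D particles, had 23.3 against 120 FPKM and 8.28 against 50.03 FPKM in hda1Δ cells, but each overlaps another annotated gene and their reads may be shared. Counted as lists, 31 of 66 processome genes were lower with a median log2 change of -0.95, and 49 of 74 large subunit assembly genes were lower with a median of -1.19, beside 5.82% and 0.01 for all ORFs.

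One processome gene was called higher. UTP21 had 4.35 FPKM at 30 min and was listed at 0 FPKM at 15 min in hda1Δ cells, against 5.84 FPKM at 30 min and 18.7 FPKM at 15 min in wild type cells. It was at 54.9 FPKM in the glucose library before, so the 0 stands apart from the gene's other libraries and the call rests on it.

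Ribosomal protein genes moved together and to a similar extent. Of 137 members, 92 were lower and none was higher, 136 had a ratio below 1, and the quartiles of the log2 changes were -1.40 and -0.95 around a median of -1.18. Their summed level was 41081 FPKM at 30 min against 82446 FPKM at 15 min in hda1Δ cells, and their share of all ORF FPKM was 6.27% against 12.5%. In wild type cells the share was 7.84% against 15.9%, and in hda1Δ cells it had been 24.9% after 120 min in glucose, so 6.27% was the lowest share of the 16 libraries. RPL31B, a paralog copy of a large subunit protein, had 35.0 against 158 FPKM (0.226, 0.185 to 0.274) and RPL27B, another such copy, had 61.9 against 269 FPKM. A few members did not take part: RPL41A, which encodes the smallest ribosomal protein, had 1196 against 1399 FPKM, and RPL15B, a copy of a large subunit protein gene, had 54.4 against 48.0 FPKM. Without members that overlap another gene or are otherwise not clean, 73 of 105 were lower.

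Polymerases, translation factors and tRNA synthetases had some falling members. Of 36 genes for RNA polymerases I and III and their factors, 6 were lower (16.7%, against 5.82% of all ORFs) with a median log2 change of -0.15, the lowest being RPA190, the largest subunit of RNA polymerase I, at 12.9 FPKM against 54.4 FPKM in hda1Δ cells. Of 39 translation initiation and elongation factors 4 were lower (10.3%, median -0.53), among them YEF3, elongation factor 3, at 276 against 769 FPKM. Of 19 tRNA synthetase genes 4 were lower (21.1%, median -0.67), including KRS1, which charges the lysine tRNA, at 66.0 against 190 FPKM. No member of these lists was called higher.

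The paired motifs and the falls overlapped across the genome. Both PAC and RRPE were present in 213 of the 5881 promoters examined (3.62%), and 86 of these ORFs (40.4%) were lower and 1 was higher. Their median log2 change was -0.68, against 0.02 for the 5668 ORFs without both motifs, of which 4.52% were lower. The pair was present in 43 of 66 processome promoters (65.2%) and 42 of 74 large subunit assembly promoters (56.8%) but in 1 of 137 ribosomal protein promoters (0.730%), so nearly all ribosomal protein genes that fell did so without the pair. Outside these 3 lists, 30 of 127 ORFs with the pair were lower (23.6%), against 140 of 5477 without it (2.56%). Within the processome and assembly lists, 56 of 85 ORFs with both motifs were lower (65.9%) and 24 of 55 without both were lower (43.6%). A match is a description of the letters and not of a bound site.

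**Figure D2:**
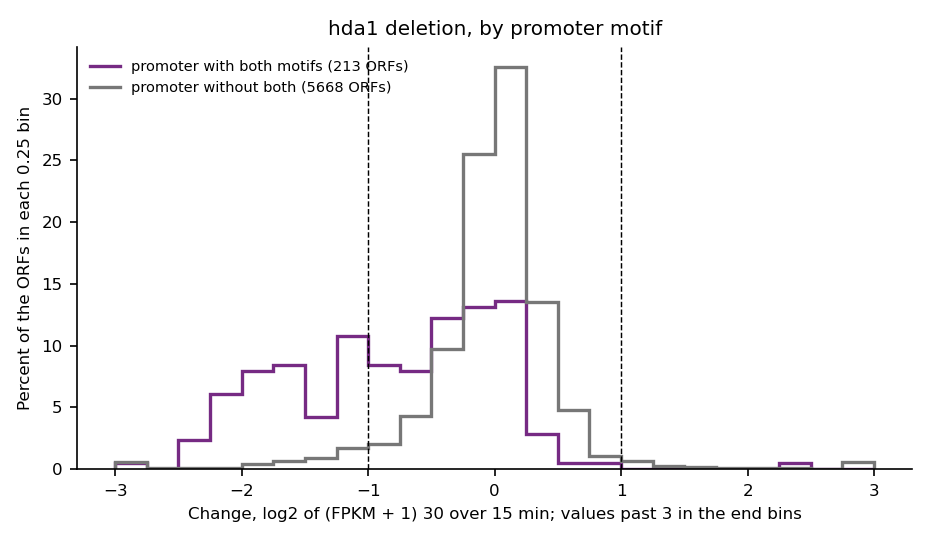
Distribution of the log2 change in hda1Δ cells for ORFs whose promoter window holds both PAC and RRPE (213 ORFs) and for those without both (5668 ORFs), as percent of each set per 0.25 bin; dashed lines mark 2-fold. The set with both motifs also has its largest bins next to 0, with 13.6% at 0 to 0.25 and 13.1% at -0.25 to 0. It spreads down past -2, with a median of -0.68. The other set is gathered more closely around 0, with 32.6% at 0 to 0.25.

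The falls continued a decline that had begun at 15 min. Relative to the glucose 120 min library, the median log2 change at 15 min in hda1Δ cells was -1.30 for ribosomal protein genes, -2.45 for processome genes and -2.40 for large subunit assembly genes, against -0.05 for all ORFs. Of the 259 clean ORFs that were lower at 30 min, 241 were below all 6 earlier hda1Δ libraries at 30 min and 200 were so already at 15 min. Of all 4788 clean ORFs, 1354 were below those 6 libraries at 30 min and 1210 at 15 min. In the first exposure, which followed raffinose, the median log2 changes at 30 min over 15 min were smaller, at -0.18, -0.27 and -0.24 for the same 3 lists against -0.07 for all ORFs.

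The GAL structural genes kept rising from high levels. GAL1, the galactokinase, rose to 3147 FPKM at 30 min, against 1313 FPKM at 15 min, in hda1Δ cells (2.39, 2.36 to 2.43), and had 1347 against 524 FPKM in wild type cells (2.57, 2.50 to 2.63). It was the only one of the 4 genes past 2-fold in hda1Δ cells. The other 3 had higher levels at 30 min without reaching the rule. GAL10, which encodes the epimerase, had 2183 against 1166 FPKM (1.87-fold), and GAL7, the uridyltransferase, had 2258 against 1582 FPKM (1.43-fold). GAL2, the galactose permease, had 2780.5 against 1650 FPKM (1.69-fold).

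At both times every structural gene stood higher in hda1Δ cells than in wild type cells, and by a smaller factor at 30 min. The hda1Δ level was 2.34 times the wild type level at 30 min and 2.50 times at 15 min for GAL1, and 1.51 and 1.97 times for GAL7. Wild type cells had 991 and 475 FPKM of GAL10, 1493 and 802 FPKM of GAL7, and 1407 and 744 FPKM of GAL2 at 30 and 15 min, so all 4 wild type ratios were above the hda1Δ ratios. The difference was largest for GAL7, at -0.38 on the log2 scale (-0.43 to -0.34). In the first exposure all 4 genes passed 2-fold in hda1Δ cells, with a median log2 change of 1.87 against 0.83 in the second, but from far lower levels, as GAL1 had 36.7 FPKM at 30 min and 8.16 FPKM at 15 min.

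All 4 promoters hold matches to the Gal4 motif (CGG and CCG with 11 free bases between) within 500 bases of the start, which 176 of the 5881 ORFs have (2.99%). One match of each is shown because Gal4 is the activator of these genes, with the motif in capitals and the strand of the gene given.
GAL1, chrII:278599-278627, plus strand: ctccgaCGGAAGACTCTCCTCCGtgcgtc
GAL10, chrII:278562-278590, minus strand: cccgctCGGCGGCTTCTAATCCGtacttc
GAL7, chrII:275697-275725, minus strand: agcgctCGGACAACTGTTGACCGtgatcc
GAL2, chrXII:289878-289906, plus strand: tCGGGGCGGATCACTCCGAACCGagatta
The GAL1 and GAL10 stretches lie in the promoter region that these divergent genes share. In GAL2 the capitals cover overlapping matches.

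The regulators changed less than the structural genes. GAL3, the galactose sensor, had 64.7 FPKM at 30 min against 53.8 FPKM at 15 min in hda1Δ cells, and GAL80, the inhibitor, had 166 against 120 FPKM. GAL4, the activator, had 16.3 against 15.2 FPKM. None of the 9 regulators and minor Gal4 targets was called in hda1Δ cells, and their median log2 change was 0.26.

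**Figure D3:**
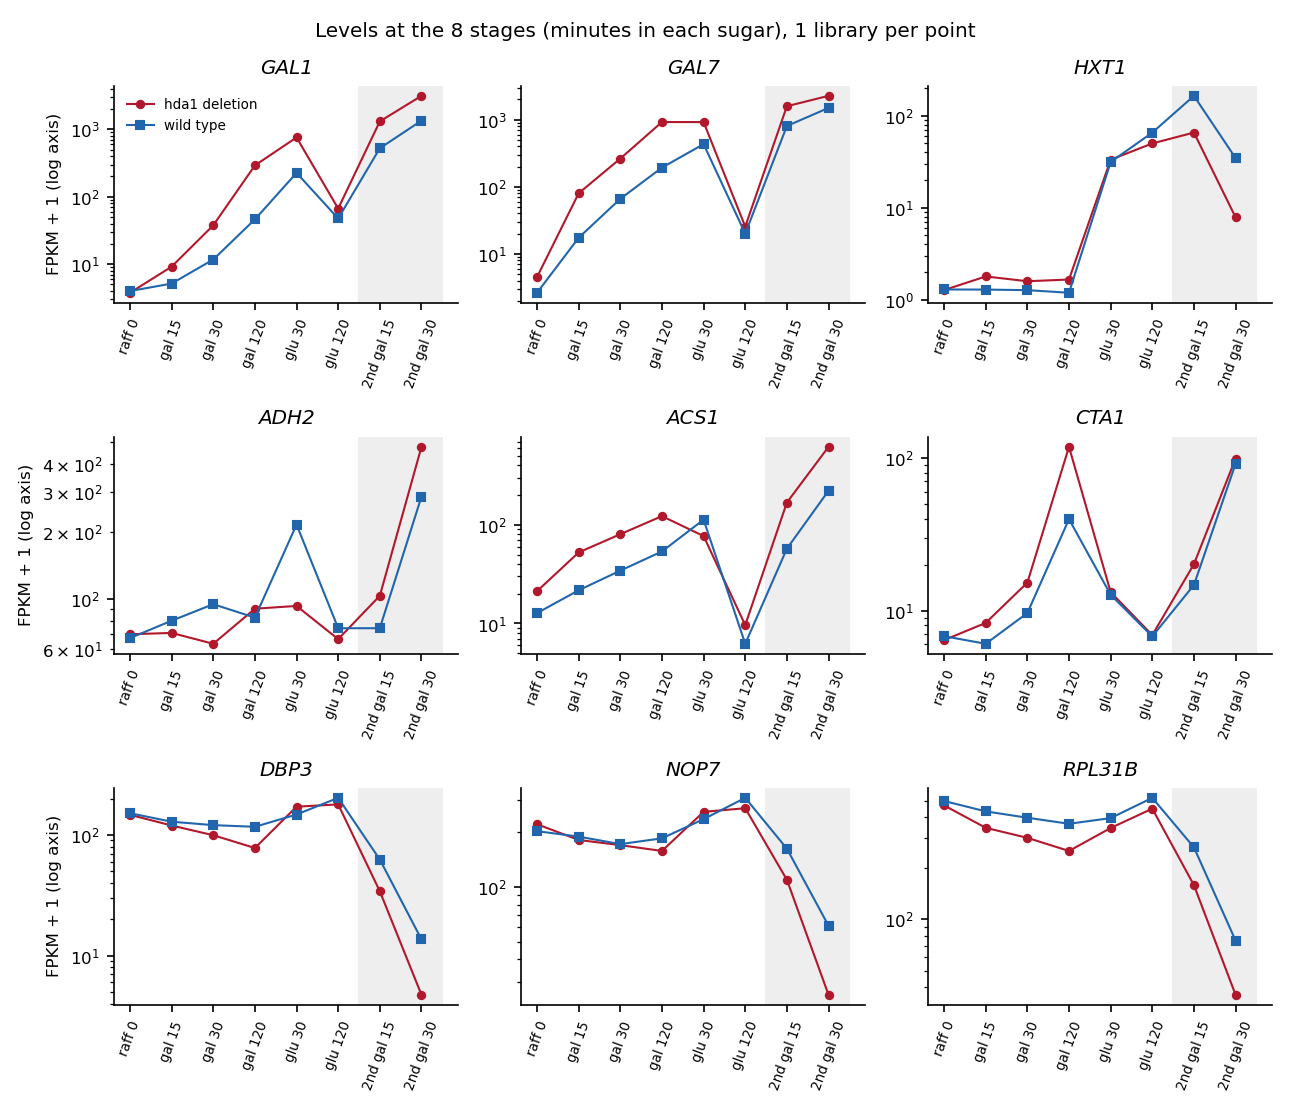
FPKM + 1 (log axis) of 9 genes at the 8 stages in order, 1 library per point, with hda1Δ cells in red and wild type cells in blue; the shaded stages are the second exposure to galactose. GAL1 and GAL7 rise further in the second exposure, HXT1 drops to 6.85 FPKM in hda1Δ cells, ADH2, ACS1 and CTA1 rise steeply between 15 and 30 min, and DBP3, NOP7 and RPL31B fall below all their earlier levels.

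Apart from ORFs whose listed value switched between 0 and a high level, the largest rises included many genes for carbon sources other than glucose. CTA1, the peroxisomal catalase, rose to 97.9 FPKM at 30 min, against 19.1 FPKM at 15 min, in hda1Δ cells (4.91, 4.39 to 5.51), and had 90.3 against 13.7 FPKM in wild type cells. ADH2, the alcohol dehydrogenase that consumes ethanol, rose to 475 FPKM against 103 FPKM (4.60, 4.32 to 4.89), with 285 against 73.3 FPKM in wild type cells, and 9.49% of its 100-base windows occur elsewhere in the genome. POX1, the first enzyme of peroxisomal fatty acid oxidation, had 69.5 against 15.3 FPKM, and ACS1, an acetyl-CoA synthetase, had 617 against 167 FPKM in hda1Δ cells. ACS1 had 221 against 56.3 FPKM in wild type cells, so hda1Δ cells held more ACS1 transcript at both times while the ratios, 3.67 and 3.87, were close.

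These genes share the core TTGGNG of the sequence bound by Adr1, the activator named after alcohol dehydrogenase regulation, and the match of 4 of the strongest risers is shown in capitals for that reason.
CTA1, chrIV:969833-969850, minus strand: acagaaTTGGAGaaacaa
ADH2, chrXIII:874603-874620, minus strand: tataagTTGGAGaaataa
POX1, chrVII:107969-107986, plus strand: aatacaTTGGGGctttaa
ACS1, chrI:45195-45212, minus strand: ttgcagTTGGGGtacagt
The core is short and common, and it was searched for after the values were seen. On either strand it was present in 17 of 22 fatty acid oxidation promoters (77.3%) and in 10 of 18 promoters for lactate, acetate and glycerol use (55.6%). The share was 34.5% of all promoters examined in the same window, from 250 bases before to 50 after the start. The ADH2 match lies outside that window, in a stretch 266 to 283 bases before the start, and within 500 bases the core was in 52.0% of all promoters. Other named risers, such as CHA1, GCV2 and STP22, also carried it within 500 bases, so it does not set the carbon source genes apart from them.

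Of 22 fatty acid oxidation and peroxisome genes 8 were higher (36.4%, median log2 change 0.63), and of 18 genes for lactate, acetate and glycerol 6 were higher (33.3%, median 0.70), against 1.89% of all ORFs, with none lower in either list. FOX2, the multifunctional enzyme of fatty acid oxidation, had 62.4 against 18.3 FPKM in hda1Δ cells. POT1, the thiolase that ends the cycle, had 145 against 60.6 FPKM, and ECI1, the isomerase for unsaturated fatty acids, had 123 against 46.4 FPKM, both named after their values were seen. JEN1, the lactate permease, rose to 682 FPKM against 213 FPKM (3.19, 3.08 to 3.30), and was at 626 against 168 FPKM in wild type cells. Wild type cells had 9 and 8 higher genes in the same lists, against 2.28% of all ORFs there. One enzyme of the glyoxylate cycle went the other way without passing the rule: ICL1, isocitrate lyase, had 48.4 FPKM at 30 min and 91.9 FPKM at 15 min in hda1Δ cells (0.532), and 35.4 and 56.2 FPKM in wild type cells.

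Of the other risers, RGI2, linked to respiratory growth, rose to 806 FPKM against 244 FPKM in hda1Δ cells, and YIG1 had 24.6 against 4.86 FPKM. CHA1, which breaks down serine and threonine, had 144 against 40.7 FPKM, and GCV2, a subunit of the glycine cleavage system, had 81.9 against 24.5 FPKM. GLN1, glutamine synthetase, had 843 against 305 FPKM, and GAP1, the general amino acid permease, had 392 against 167 FPKM. In wild type cells GAP1 had 171 against 41.4 FPKM, so its ratio was 2.35 in hda1Δ cells and 4.06 in wild type cells while its level was higher in hda1Δ cells at both times. CIT3, a mitochondrial citrate synthase, had 146 against 48.7 FPKM. It was the 1 of 20 genes of the tricarboxylic acid cycle called higher (5%, against 1.89% of all ORFs), in a list whose median was 0.39.

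A few stress genes rose. Of 35 general stress genes 4 were higher (11.4%, against 1.89% of all ORFs) and none lower (median log2 change 0.31), but 2 of these 4 were uncertain or switching ORFs and 2 were higher without them. Of 25 heat shock and chaperone genes 2 were higher (8%) and none lower (median 0.64). The heat shock genes were SSA4, an inducible Hsp70, at 104 against 38.9 FPKM, and HSP82, an Hsp90, at 660 against 293 FPKM. HSP12, a membrane-associated stress protein gene picked after its values were seen, reached 14763 FPKM at 30 min against 6850 FPKM at 15 min in hda1Δ cells, and 14848 against 5058 FPKM in wild type cells. One stress gene called higher, XBP1, was listed at 0 in many libraries and is described further on.

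Several lists shifted slightly as a whole with few or no calls. All 34 proteasome genes had a ratio above 1, with log2 changes between 0.04 and 0.46 and a median of 0.25, and none was called. Of 72 mitochondrial ribosomal protein genes 70 had a ratio above 1 (median 0.38), and the 1 called higher, MRPL19, was at 49.4 FPKM at 30 min and listed at 0 FPKM at 15 min, was under 3 fragments in 11 of the 16 libraries and overlaps another gene. Of 36 nuclear genes of the respiratory chain and ATP synthase 1 was higher (2.78%, against 1.89% of all ORFs, median 0.13). No histone, a-specific, alpha-specific or mating response gene was called, and the a-specific MFA2, a pheromone gene, was at 1717 and 1941 FPKM while the alpha-specific MF(ALPHA)1 was at 0.873 and 1.26 FPKM in hda1Δ cells at 30 and 15 min. Among 13 meiotic entry genes 1 was higher (7.69%, against 1.89% of all ORFs) and none lower. Of 63 amino acid biosynthesis genes 5 were higher (7.94%, against 1.89% of all ORFs) and 3 lower (4.76%, against 5.82%), and 3 were higher without uncertain and switching ORFs. Of 22 purine biosynthesis genes 5 were lower (22.7%) and none higher.

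**Figure D4:**
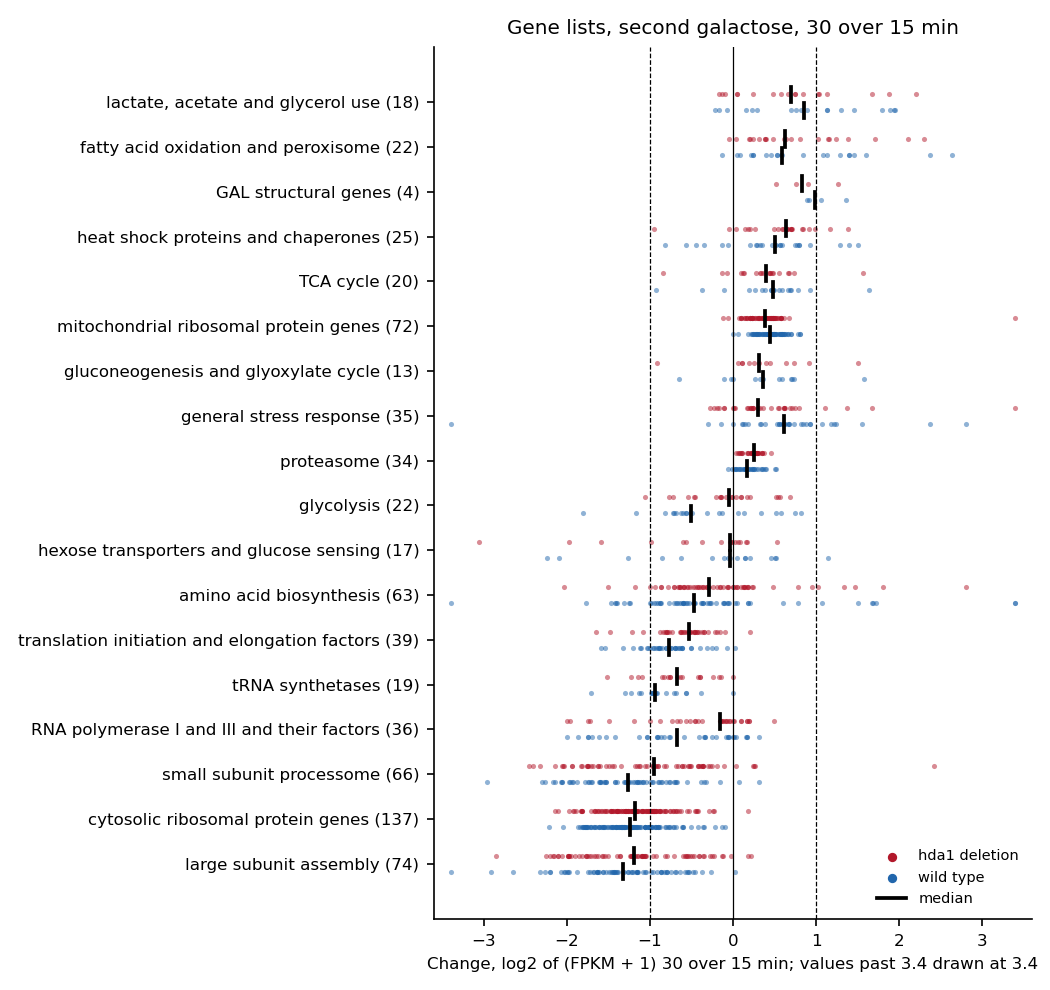
Log2 change at 30 min over 15 min of each member of 18 gene lists, with hda1Δ cells in red above wild type cells in blue, the number of members examined in parentheses, the median as a black bar and dashed lines at 2-fold. The medians in hda1Δ cells run between 0.83 for the GAL structural genes and -1.19 for large subunit assembly genes, and the wild type medians follow a similar order.

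Several glucose transporter genes fell. HXT1, a low-affinity glucose transporter, had 6.85 FPKM at 30 min against 64.4 FPKM at 15 min in hda1Δ cells (0.120, 0.101 to 0.142), and 33.6 against 163 FPKM in wild type cells. HXT3, another low-affinity transporter, had 167 against 660 FPKM, and HXT4 had 203 against 609 FPKM in hda1Δ cells. These 3 were the only members of the 17 hexose transporter and glucose sensing genes called lower (17.6%, against 5.82% of all ORFs). At 15 min HXT1 was higher in the second galactose exposure than in either glucose library of the same genotype, which held 32.2 and 48.8 FPKM at 30 and 120 min in hda1Δ cells. HXT5, a transporter made in slow growth, had 64.2 against 44.2 FPKM in hda1Δ cells, a ratio of 1.44 (1.32 to 1.57), and 94.3 against 42.3 FPKM in wild type cells, a ratio of 2.20. AAH1, adenine deaminase, was among the largest falls with 2.76 against 24.9 FPKM in hda1Δ cells.

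The wild type change from 15 to 30 min ran broadly in parallel, more closely among clean ORFs than among all ORFs. In wild type cells 134 ORFs were higher (2.28%) and 435 lower (7.4%). Of the 55 clean ORFs higher in hda1Δ cells 45 were also called higher in wild type cells (81.8%), where they made up 53.6% of the 84 clean ORFs called. Of the 259 clean ORFs that were lower 216 were also called lower in wild type cells (83.4%), 64.9% of the 333 called there. The changes had a Pearson r of 0.71 and a Spearman rho of 0.72 across the 4788 clean ORFs, which share the same 4 libraries and are not independent replicates. Over all ORFs examined r was 0.44 and rho 0.68. There 60 of the 111 higher ORFs (54.1%) and 262 of the 342 lower ORFs (76.6%) had the same call in wild type cells. The clean set leaves out isolated hda1Δ values, which by definition the wild type libraries do not share, so its closer agreement is partly built in. Such ORFs were 22 of the 111 and 21 of the 342. In the first exposure of hda1Δ cells 47 ORFs were higher (0.799%) and 48 lower (0.816%). There 7 of the 55 clean higher ORFs and 1 of the 259 clean lower ORFs had the same call. In the same direction changed 40 of the 55 and 241 of the 259, with median log2 changes of 0.33 and -0.20. All clean ORFs had a median of -0.07 in the first exposure, so falls were the more common direction there. Across clean ORFs the changes in the first and second exposure had a Pearson r of 0.21 and a Spearman rho of 0.30.

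**Figure D5:**
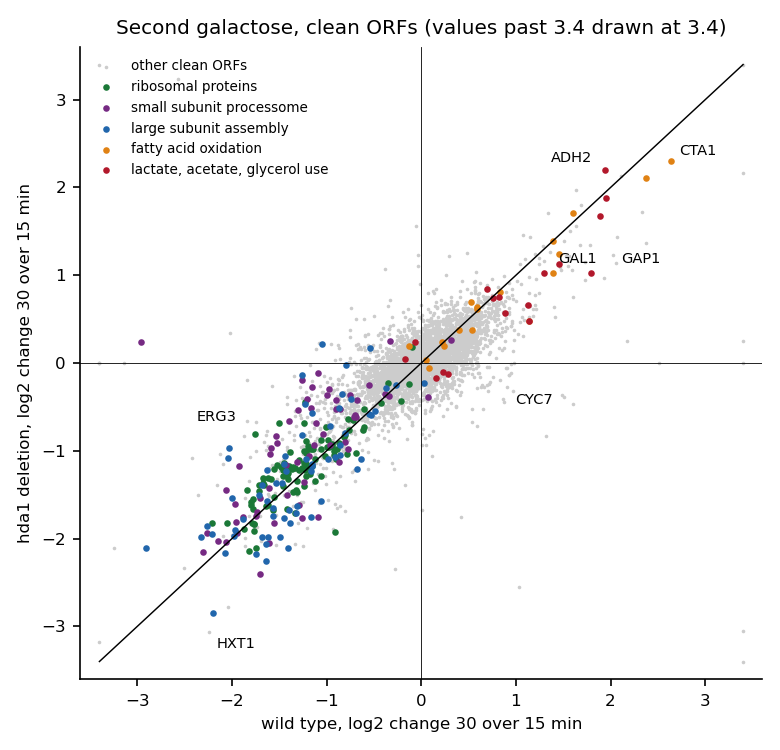
Log2 change at 30 min over 15 min of the clean ORFs in hda1Δ cells (vertical axis) against wild type cells (horizontal axis), with the line of equal change. Most coloured genes lie near the line, ERG3 lies above it, and CYC7 and GAP1 lie below it.

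To compare the course in the 2 genotypes, the wild type change was subtracted from the hda1Δ change, and with 1 library each the genotype and the spread between cultures cannot be told apart in this difference. The difference was at least 1 on the log2 scale for 107 ORFs (1.82%) and at most -1 for 98 ORFs (1.67%), and for 41 and 32 clean ORFs, with a median of 0.01 over all ORFs. In several lists most members had the more positive change in hda1Δ cells, such as tRNA synthetases (18 of 19) and purine biosynthesis (18 of 22). Fatty acid synthesis (12 of 15), amino acid biosynthesis (48 of 63), the processome (49 of 66) and translation factors (31 of 39) did so as well. These lists are examples, and for all ORFs only the median of 0.01 was computed, not this share. Few members did in other lists, such as the respiratory chain and ATP synthase (2 of 36) and general stress genes (6 of 35). Sterol synthesis was among the lists with a more positive change in hda1Δ cells. Of 27 members none was lower in hda1Δ cells, against 5.82% of all ORFs, and 5 were lower in wild type cells, against 7.4%. The change was more positive in hda1Δ cells for 22 members, with a median difference of 0.23. A difference of at least 1 was seen for 4, against 1.82% of all ORFs. ERG3, the sterol desaturase, had 68.0 against 108 FPKM in hda1Δ cells and 62.3 against 226 FPKM in wild type cells, a difference of 1.18 (1.00 to 1.36). ERG11, the lanosterol demethylase, had 93.6 against 83.6 FPKM in hda1Δ cells and 48.3 against 106 FPKM in wild type cells. The genotypes thus differed at 15 min, where hda1Δ cells held less ERG3, as well as at 30 min, where they held more ERG11. ERG11 was named after its values were seen.

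Sulfate assimilation and methionine genes gave a like picture. Of 29 members 1 was lower in hda1Δ cells (3.45%, against 5.82% of all ORFs) and 5 in wild type cells, against 7.4% of all ORFs. In hda1Δ cells 2 were higher (6.90%, against 1.89% of all ORFs), and in wild type cells 0. The change was more positive in hda1Δ cells for 24 members, with a median difference of 0.24. MET6, methionine synthase, named after its values were seen, had 199 against 170 FPKM in hda1Δ cells and 124 against 264 FPKM in wild type cells. Glycolysis had a median log2 change of -0.05 in hda1Δ cells and -0.51 in wild type cells. ENO2, an enolase induced by glucose, had 1233 against 2581 FPKM in hda1Δ cells (0.478) and 943 against 3306 FPKM in wild type cells (0.286). HXK2, the main hexokinase in glucose, had 433 against 862 FPKM in hda1Δ cells (0.503) and 280 against 873 FPKM in wild type cells (0.321).

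In the ribosome lists the hda1Δ levels lay below the wild type levels at both times. Processome genes had median log2 ratios of hda1Δ over wild type of -0.57 at 30 min and -0.85 at 15 min, and large subunit assembly genes had -0.71 and -0.84, against -0.16 at each time for all ORFs. Their median changes were -0.95 in hda1Δ cells and -1.26 in wild type cells for the processome, and -1.19 and -1.32 for large subunit assembly. Ribosomal protein genes had -1.18 in hda1Δ cells and -1.24 in wild type cells. The general stress genes had positive median changes, of 0.31 in hda1Δ cells and 0.62 in wild type cells. Their median log2 ratio of hda1Δ over wild type was -0.09 at 30 min and 0.12 at 15 min.

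Single clean genes with the largest differences were mostly at low or unsteady levels. CYC7, the form of cytochrome c made in low oxygen and stress, was an exception with 246 against 299 FPKM in hda1Δ cells and 574 against 306 FPKM in wild type cells, a difference of -1.19 (-1.35 to -1.02). The ratio of hda1Δ over wild type cells was 0.430 at 30 min and 0.978 at 15 min, so the genotypes parted only in the later library. UTR2, a cell wall enzyme that links chitin, had 20.8 against 25.1 FPKM in hda1Δ cells and 9.83 against 31.4 FPKM in wild type cells, a difference of 1.32 (0.96 to 1.67). INA1, a membrane protein gene, had 13.7 against 30.1 FPKM in hda1Δ cells and 7.77 against 45.9 FPKM in wild type cells. CDD1, cytidine deaminase, had 26.2 against 21.8 FPKM in hda1Δ cells and 28.8 against 5.60 FPKM in wild type cells, so its difference of -1.92 rests on the wild type library at 15 min.

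Part of the calls came from ORFs whose listed value jumped between 0 and a high level. At 30 min 14 ORFs, and at 15 min 24 ORFs, were listed at 0 in hda1Δ cells while the other time had at least 10 FPKM. Over the 4 libraries of the second exposure, 84 ORFs were switching, with under 3 fragments in any library of either genotype and at least 10 FPKM in another. They made up 29 of the 111 higher and 19 of the 342 lower ORFs. The low value could also lie in wild type cells only, as for STP22 below. FKS1, a subunit of the cell wall glucan synthase, was listed at 0 at 30 min and at 149 FPKM at 15 min in hda1Δ cells, and at 0 and 165 FPKM in wild type cells. STP22, a protein of the sorting complex ESCRT-I, had 41.4 against 8.43 FPKM in hda1Δ cells, and was at 14.9 FPKM at 30 min and at 0 at 15 min in wild type cells. CDC1, needed for bud growth, was listed at 0 in both hda1Δ libraries and at 0 and 69.3 FPKM in wild type cells, and was under 3 fragments in 9 of the 16 libraries. Without all such ORFs and those that were not clean, 52 ORFs were higher and 256 lower in hda1Δ cells.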

How the data were processed

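Yeast RNA was extracted with hot phenol, made into NEXTflex Rapid Directional mRNA-Seq libraries and sequenced on a HiSeq instrument. Per the labels and methods, HISAT2 2.0.4 served for alignment and StringTie 1.3.0 for abundance (-e -B, no strand option), on Ensembl R64-1-1, release 86. The authors' deposited values are mean coverage, FPKM and TPM per gene, and no read counts were used. Depth was rebuilt from coverage and length, taking 202 bases as 1 fragment, and fragments under 3 are treated as near 0. Reads of overlapping genes, also on opposite strands, may be split arbitrarily by such counting, as may those of repeated sequence (more than 10% of 100-base windows).

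Ratios of FPKM + 1 were computed with Python 3.11.15, NumPy 2.4.6, pandas 2.3.3 and SciPy 1.17.1 for every ORF whose 16-library mean reached 1 FPKM. Isolated values were sought only in the hda1Δ libraries of the second exposure. Such a value lay 4-fold or more from the 3 other second-exposure libraries while these agreed within 2-fold. A value near 0 had under 3 fragments while the median of the other libraries was at least 10 FPKM. The labels' suffix -1 was read as the second exposure. With 1 library per group no test was run, and calls are past 2-fold. The script was tested on simulated data. The comparison, the 49 gene lists and the motifs were chosen with earlier results of these data known. Named genes are HDA1 to HDA3, GAL1, GAL2, GAL3, GAL4, GAL7, GAL10, GAL80, HXT1, HXT5, the 12 highest and 12 lowest clean ORFs averaging at least 10 FPKM over the 4 second-exposure libraries, the 6 highest and 6 lowest differences between genotypes, and up to 3 members at either end of each list; those outside the rule are said to be picked after their values were seen or to be uncertain. Sequences were read from RefSeq R64, where 6048 loci matched and 6036 had identical ends. Alternatives were the pseudocount, TPM, centring, scaling, fold, low-value filter, counting interval and exclusions of uncertain ORFs.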

Additional observations from a re-analysis of the deposited data

Results flagged for a closer look

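Of the 12 ORFs named for the largest clean differences between genotypes, 7 moved in opposite directions in hda1Δ and wild type cells between 15 and 30 min, with 1 library each, so the difference was not tested. Over all ORFs, 11 of those higher and 6 of those lower in hda1Δ cells had the opposite call in wild type cells. The figure given is the log2 change in hda1Δ cells minus that in wild type cells.

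XBP1, a stress-induced repressor, had a difference of 11.41: it was at 58.4 FPKM at 30 min and listed at 0 at 15 min in hda1Δ cells, and listed at 0 at 30 min and at 44.8 FPKM at 15 min in wild type cells. It was under 3 fragments in 9 of the 16 libraries. CTR2, a vacuolar copper transporter, and its neighbour YHR175W-A mirrored each other. CTR2 had a difference of -7.70, with 4.70 against 63.9 FPKM in hda1Δ cells and 66.1 against 2.67 FPKM in wild type cells. YHR175W-A had a difference of 5.81, with 28.4 against 2.12 FPKM in hda1Δ cells and 4.05 against 29.1 FPKM in wild type cells. These ORFs lie 116 bases apart on the same strand of chromosome VIII, and whether reads pass between them was not tested.

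SGF29, a subunit of the histone acetyltransferase complex SAGA, had a difference of -2.18, with 10.0 against 36.2 FPKM in hda1Δ cells and 54.8 against 40.5 FPKM in wild type cells, and it was at 3.69 FPKM in 1 earlier hda1Δ library. DCN1, which acts in cullin modification, had a difference of 1.45, with 16.2 against 7.18 FPKM in hda1Δ cells and 13.1 against 17.3 FPKM in wild type cells. SHG1, a subunit of the histone methyltransferase complex COMPASS, had a difference of -1.28, with 8.79 against 12.04 FPKM in hda1Δ cells and 17.4 against 9.06 FPKM in wild type cells. CYC7 had a difference of -1.19, at the highest levels of the 7, with 246 against 299 FPKM in hda1Δ cells and 574 against 306 FPKM in wild type cells.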

How the results depend on the processing

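Of 128 counts over all ORFs under the alternatives, 97 stayed within 1.5 times the count reported and 31 did not. At 1.7-fold, 168 ORFs were higher in hda1Δ cells and 248 in wild type cells, and 168 and 157 differed upwards and downwards between genotypes. At 3-fold, 57 were higher and 137 lower in hda1Δ cells, 60 higher and 146 lower in wild type cells, 31 higher in the first exposure, and 61 and 65 differed upwards and downwards. A pseudocount of 5 FPKM gave 31 higher in the first exposure and 69 and 57 differences, a pseudocount of 0.1 gave 148 downward differences, and a minimum mean of 5 FPKM gave 31 higher in the first exposure and 61 downward differences. Requiring the counting interval to exclude equality left 58 and 47 differences. Without overlapping ORFs, 29 were higher and 31 lower in the first exposure and 70 and 62 differed. Without switching ORFs, an alternative added after seeing the data, 69 and 64 differed. Without all uncertain and switching ORFs, also added later, 52 were higher in hda1Δ cells, 78 in wild type cells, 21 higher and 12 lower in the first exposure, and 36 and 27 differed.

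Of 256 list counts 232 stayed within 1.5 times, the exceptions including 18 ribosomal protein genes lower at 3-fold. Of 1530 values of named genes 1450 stayed within their counting interval and 80 did not. No named change past 2-fold switched sign, which says little because these alternatives reuse the same libraries. No paired analysis was possible because each genotype and stage had 1 library. Leaving out a replicate was likewise not run. Depth set a floor of 3 fragments, which is 0.258 to 0.320 FPKM for a transcript of 1 kilobase in the 4 second-exposure libraries. Culture-to-culture spread could not be measured at any depth.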
